A study of Mus musculus with 8 samples.

Results

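The integrated stress response (ISR) genes described here are 10 genes of the ATF4, CHOP and XBP1 axis, chosen by gene symbol from the 56691 genes of the deposited table with chaperones left out: Atf4, Ddit3, Xbp1, Ern1, Trib3, Asns, Chac1, Sesn2, Ddit4 and Ppp1r15a. All 10 were found, each by a single identifier, and all 10 passed the filter on low counts. They were measured by bulk RNA-seq in 8 libraries of sorted Kupffer cells, which are liver macrophages, with 4 libraries of wild-type (WT) animals and 4 of animals lacking Vsig4 (labelled VSIG4 KO, or Vsig4-/-). In both genotypes B16F10 cells, a mouse melanoma line, had been injected 7 days earlier and the livers carried melanoma metastases. The gate in both was CD45+ Tim-4+ and negative for the dead-cell dye DAPI. Age and sex, and how the Vsig4 allele was made, are not stated in the labels. Nor do they state whether each library is a different mouse, so a p-value covers library-to-library spread that may be in part technical.

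In the ISR, kinases that sense amino acid shortage, heme shortage, viral RNA or unfolded protein in the endoplasmic reticulum (ER) phosphorylate the translation factor eIF2. General translation then drops, while the mRNA of the transcription factor ATF4 is translated more. ATF4 and its partner CHOP (encoded by Ddit3) turn on genes for amino acid supply, for glutathione turnover and for feedback that reopens translation. The ER sensor IRE1 alpha (Ern1) acts beside this arm by splicing Xbp1 mRNA, an event that counts per gene do not show, just as they do not show translation of Atf4.

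Of the 10 genes, Asns and Chac1 varied most alike between libraries, and the sequences before their start sites are shown for that reason. Asns encodes asparagine synthetase, and Chac1 encodes an enzyme that degrades glutathione. Both are well-known ATF4 targets. The lines below give the 250 bases before the annotated start, 5′ to 3′ on the strand of the gene, from RefSeq with the GRCm38.p6 build, at chr6:7693210-7693459 (minus strand) for Asns and chr2:119350992-119351241 (plus strand) for Chac1. Capitals mark matches to TGATGNAA, a core of the C/EBP-ATF response element, on either strand.
Asns: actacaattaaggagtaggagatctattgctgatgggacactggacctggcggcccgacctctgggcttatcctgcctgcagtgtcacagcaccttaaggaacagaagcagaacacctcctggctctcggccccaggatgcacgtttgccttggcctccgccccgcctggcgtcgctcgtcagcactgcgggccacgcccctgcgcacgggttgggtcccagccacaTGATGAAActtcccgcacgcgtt
Chac1: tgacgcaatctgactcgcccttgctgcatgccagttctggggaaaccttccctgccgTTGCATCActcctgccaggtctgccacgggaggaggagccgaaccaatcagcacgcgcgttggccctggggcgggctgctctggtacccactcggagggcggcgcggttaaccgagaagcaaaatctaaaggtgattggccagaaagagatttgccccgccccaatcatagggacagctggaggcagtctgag
The match lay 23 to 16 bases before the start in Asns, on the strand of the gene, and 193 to 186 bases before it in Chac1, on the other strand. Of the windows of all 10 genes, these 2 held a match, while 3.45% of the 32851 windows of all genes did. No window of the 10 held the ER stress response element (CCAAT, 9 bases of any kind, CCACG), found in 0.113% of all windows, and 1 of them (Ppp1r15a) held the cyclic AMP response element TGACGTCA, found in 1.55%. The 3 motifs were searched on both strands and their matches did not overlap. A match here is a description of letters and not of a bound site.

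The libraries held 15264043 to 19513844 counts each, and mitochondrial genes took 4.07% to 8.16% of them. Levels are given below as CPM, counts divided by a library total that was corrected by TMM (a scaling which assumes that most genes do not change). For Vsig4 the WT libraries held 22498 to 46735 counts and the KO libraries 2 to 9 (log2 fold change -12.89 ± 0.531 SE, edgeR adjusted p = 5.35e-05), in the direction of the labels. All 11 Kupffer cell markers were detected, with summed levels of 22066 to 41949 CPM in WT and 8364 to 26198 CPM in KO. This list includes Vsig4 itself, at 1392 to 2890 CPM in WT and 0.111 to 0.501 CPM in KO. Only a part of the difference between these sums is thus the deleted gene, and 0 of the 11 markers had a higher mean in KO than in WT. All 10 melanoma markers were detected as well, and their sum differed widely within each genotype: WT 1 to 4 stood at 485, 415, 5488 and 4707 CPM, and KO 1 to 4 stood at 2437, 3485, 12376 and 6450 CPM. No melanoma marker was at 0 in any library, and all 10 had a higher mean in KO than in WT. Summed markers of hepatocytes reached at most 1878 CPM and those of T cells at most 197 CPM. In bulk samples fewer cells of a type and less RNA per cell cannot be told apart.

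The deposited annotation spreads the 10 genes over 7 chromosomes, with positions whose build is not named beside them and which mostly differ from GRCm38. Atf4 is at chr15:80139385-80141742 (plus strand), Ddit3 at chr10:127126643-127132157 (plus) and Ddit4 at chr10:59785491-59787656 (minus). Xbp1 is at chr11:5470659-5475893 (plus) and Ern1 at chr11:106285476-106378678 (minus). Trib3 is at chr2:152179342-152185952 (minus), Chac1 at chr2:119181710-119184862 (plus), Asns at chr6:7675169-7693254 (minus), Sesn2 at chr4:132219343-132237812 (minus) and Ppp1r15a at chr7:45172340-45175692 (minus).

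Between genes, levels can be set side by side only per length, as the authors' FPKM (counts divided by exonic length and library total). In that unit Atf4 and Xbp1 led the 10 genes, with means over 8 libraries of 64.9 and 64.4 FPKM, above 95.6% of tested genes each. Ddit4 (52.6 FPKM) and Ppp1r15a (49.5 FPKM) came next, then Asns (15.3 FPKM), Ddit3 (12.9 FPKM), Sesn2 (9.70 FPKM) and Ern1 (8.93 FPKM). Chac1 (2.11 FPKM) and Trib3 (1.87 FPKM) were lowest. The ranges over libraries overlapped between every pair of neighbours in this order except Ern1 and Chac1, whose ranges were 6.25 to 10.16 FPKM and 0.19 to 4.67 FPKM. Ppp1r15a lay above Asns in 8 of 8 libraries although their ranges overlapped.

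**Figure D1:**
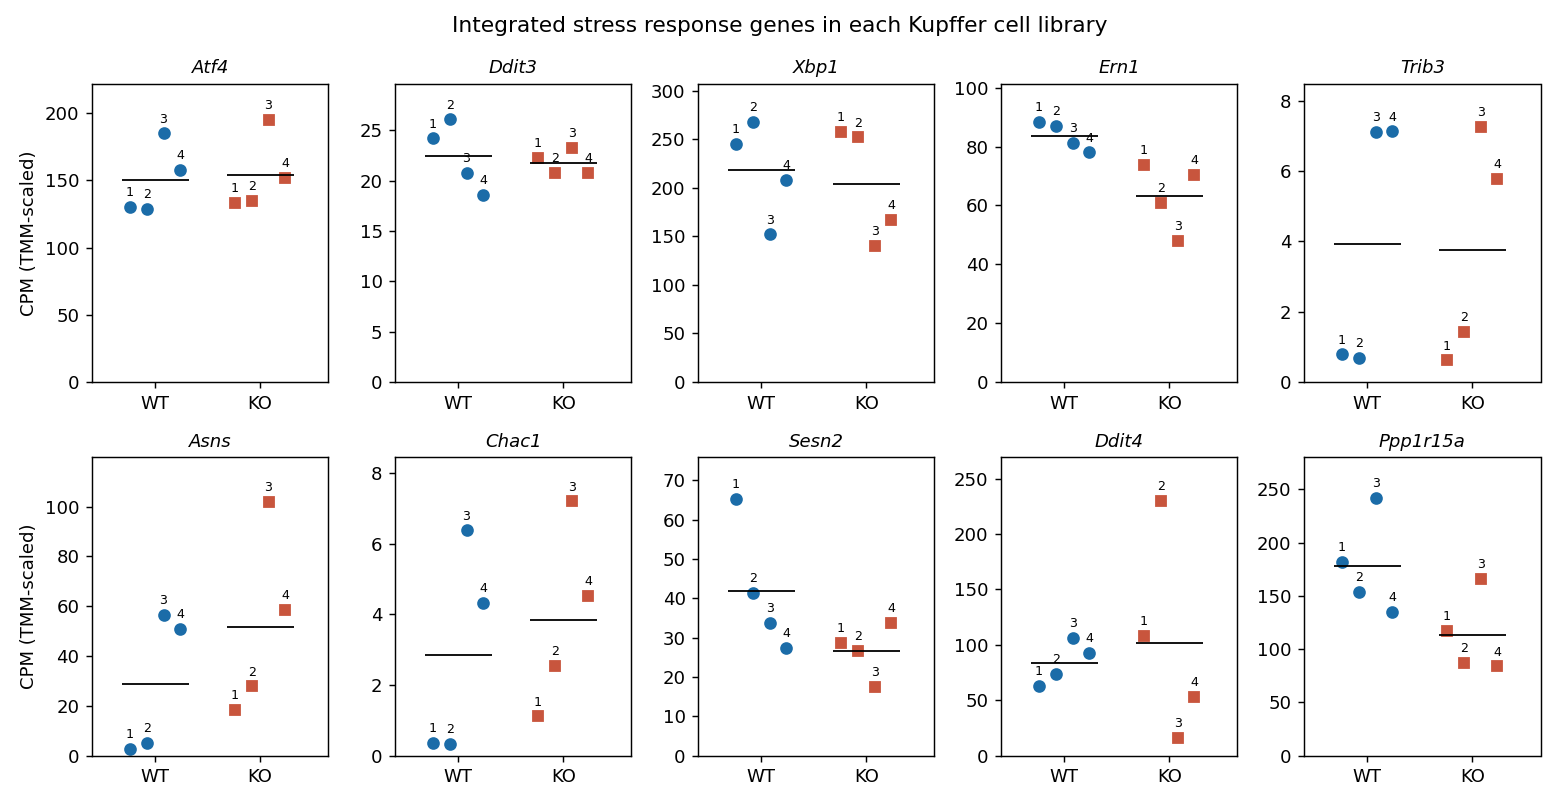
Level of each of the 10 ISR genes in CPM (y axis, linear from 0, TMM-scaled) in the WT libraries (circles) and the KO libraries (squares), numbered as in the labels, with the mean of each genotype as a line. Ern1 is the only gene whose genotypes do not overlap, and Asns, Chac1 and Trib3 split each genotype into low libraries 1 and 2 and high libraries 3 and 4.

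The first question was whether loss of Vsig4 went with another level of these genes. None of the 10 passed the test of KO against WT (edgeR quasi-likelihood test, adjusted p under 0.05), where 0.00630% of 15870 tested genes did, Vsig4 alone. DESeq2, which called 0.442% of all genes (0.241% lower), and limma on log2(FPKM + 1) also called 0 of the 10. At an unadjusted p under 0.05, 2 of the 10 stood out (Ern1 and Ppp1r15a), where 8.78% of all genes did. The median log2 fold change of the 10 was -0.05, and that of all tested genes was -0.00. Fold changes ran from 0.84 in Asns to -0.65 in Sesn2 and Ppp1r15a on the log2 scale.

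Atf4, the central transcription factor of the response, was at 130.5, 129, 185 and 158 CPM in WT 1 to 4 and at 133, 135, 195 and 152 CPM in KO 1 to 4. In both genotypes libraries 1 and 2 were low and library 3 was highest, and the genotypes overlapped fully. The log2 difference of KO against WT was 0.03 ± 0.170 (edgeR adjusted p = 0.931), with a 95% interval from -0.39 to 0.45.

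Ddit3, which encodes the pro-death partner CHOP, was the steadiest of the 10 genes. It was at 24.2, 26.1, 20.8 and 18.6 CPM in WT 1 to 4 and at 22.3, 20.8, 23.3 and 20.8 CPM in KO 1 to 4, so its highest library was 1.40 times its lowest. KO and WT differed by a log2 fold change of -0.04 ± 0.133 (edgeR adjusted p = 0.874), with a 95% interval from -0.37 to 0.28. Its deposited position overlaps that of Mars1, on the opposite strand, by 68 bases, and that of Gm4189, also opposite, by 15 bases. No label says whether counting used strand. Another entry named after Ddit3 overlaps it on the same strand by 2925 bases and had 0 counts in every library. Whether reads shared by both entries were left out of the Ddit3 counts was not tested.

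The sensor Ern1 was the only gene of the 10 whose genotypes did not overlap, against 5.56% of all tested genes. It was at 88.5, 87.0, 81.1 and 78.0 CPM in WT 1 to 4 and at 73.8, 60.9, 48.0 and 70.3 CPM in KO 1 to 4. Every KO library was below every WT library, and KO 3 was lowest. KO 3 also had the highest melanoma sum and the lowest Kupffer sum; at a given melanoma level the log2 fold change was -0.28 ± 0.134 (edgeR adjusted p = 0.747). The log2 fold change was -0.40 ± 0.139 (edgeR adjusted p = 0.492). With the replicate number as a block it was -0.42 ± 0.115 (edgeR adjusted p = 0.0496), a call that was lost without pair 1, 2 or 3 (edgeR adjusted p = 0.0905, 0.181 and 0.124). The labels do not say that equal numbers belong together, and the pairing was read from these same expression values. Blocked p-values here and below carry that limit.

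Xbp1, the transcription factor whose mRNA IRE1 alpha splices, was at 245, 268, 152 and 208 CPM in WT 1 to 4 and at 258, 252, 139.8 and 167 CPM in KO 1 to 4. Libraries 1 and 2 were high and library 3 lowest in both genotypes, the reverse of Atf4. The log2 fold change was -0.10 ± 0.249 (edgeR adjusted p = 0.840), with a 95% interval from -0.71 to 0.51. Its genotypes overlapped, unlike those of Ern1.

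Ppp1r15a encodes GADD34, a regulatory subunit of the phosphatase that removes phosphate from eIF2 and closes the feedback loop. It was at 182, 154, 242 and 135 CPM in WT 1 to 4 and at 117, 87.3, 166 and 83.8 CPM in KO 1 to 4. KO 3 lay within the WT range, while the other KO libraries were below all WT libraries. The log2 fold change was -0.65 ± 0.262 (edgeR adjusted p = 0.492), and -0.67 ± 0.0895 (edgeR adjusted p = 0.0254) with the replicate block. That call was lost without pair 2 or 3 (edgeR adjusted p = 0.0775 and 0.0827). With the block 2 of the 10 genes, Ern1 and Ppp1r15a, were called lower and none higher, where 5.01% of all genes were called lower and 8.98% higher (14.0% in either direction).

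A list of 11 immediate early genes that respond to tissue handling, such as Fos, Jun and Egr1, moved beside Ppp1r15a. All 11 were detected, and their sums were 6004, 4841, 6693 and 4472 CPM for WT 1 to 4, against 4111, 2947, 4455 and 2464 CPM for KO 1 to 4. The sum and Ppp1r15a were both highest in WT 3 and lowest in KO 4. The part of tissue handling in the Ppp1r15a values was not tested. The deposited position of Ppp1r15a overlaps that of Tulp2 on the opposite strand by 717 bases, and Tulp2 had 131 to 282 counts against 1598 to 3910 for Ppp1r15a.

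Sesn2 and Ddit4 encode stress-induced brakes on the growth kinase mTORC1. Sesn2 was at 65.3, 41.3, 33.7 and 27.3 CPM in WT 1 to 4 and at 28.6, 26.6, 17.5 and 33.7 CPM in KO 1 to 4. WT 1 was well above the rest and KO 3 lowest, and the genotypes overlapped. The log2 fold change was -0.65 ± 0.294 (edgeR adjusted p = 0.492), and without WT 1 it was -0.36. At a given melanoma level it was -0.23 ± 0.233, and without WT 1, WT 2 and KO 3 together it was -0.04 ± 0.157. The deposited position of Sesn2 overlaps that of Gm12981 on the same strand by 6089 bases. Gm12981 had 5 to 14 counts against 317 to 917 for Sesn2.

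Ddit4, which also responds to hypoxia and glucocorticoids, was the most uneven gene within KO. It was at 62.6, 73.8, 106 and 92.8 CPM in WT 1 to 4 and at 108, 229.6, 15.8 and 53.0 CPM in KO 1 to 4. KO 2 was the highest and KO 3 the lowest of all 8 libraries, 14.5 times apart, while the WT libraries stayed within a narrow band. The log2 fold change was 0.28 ± 0.649 (edgeR adjusted p = 0.822), and without KO 2 its sign turned to -0.51.

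The last 3 genes, Asns, Chac1 and Trib3, had the widest ranges together with Ddit4. Asns was at 2.78, 5.17, 56.6 and 50.9 CPM in WT 1 to 4 and at 18.5, 27.8, 102 and 58.4 CPM in KO 1 to 4, a range of 36.8 times. Chac1 was at 0.356, 0.337, 6.37 and 4.31 CPM in WT 1 to 4 and at 1.11, 2.55, 7.19 and 4.51 CPM in KO 1 to 4. Both were lowest in WT 1 and WT 2 and highest in KO 3, and the spread within WT was as large as its mean. Chac1 rested on 5 and 6 counts in WT 1 and WT 2, so its low values are known only within counting error.

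Trib3 encodes a pseudokinase that ATF4 and CHOP induce and that in turn restrains ATF4. It was at 0.783, 0.674, 7.12 and 7.13 CPM in WT 1 to 4 and at 0.612, 1.43, 7.25 and 5.77 CPM in KO 1 to 4. Here KO 1 and KO 2 lay close to WT 1 and WT 2, unlike in Asns. Log2 fold changes were 0.84 ± 0.935 for Asns (edgeR adjusted p = 0.631), 0.43 ± 0.941 for Chac1 (edgeR adjusted p = 0.808) and -0.06 ± 0.962 for Trib3 (edgeR adjusted p = 0.977). The 95% interval of Asns ran from -1.45 to 3.13, so a difference of several fold in either direction could not be told from none.

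**Figure D2:**
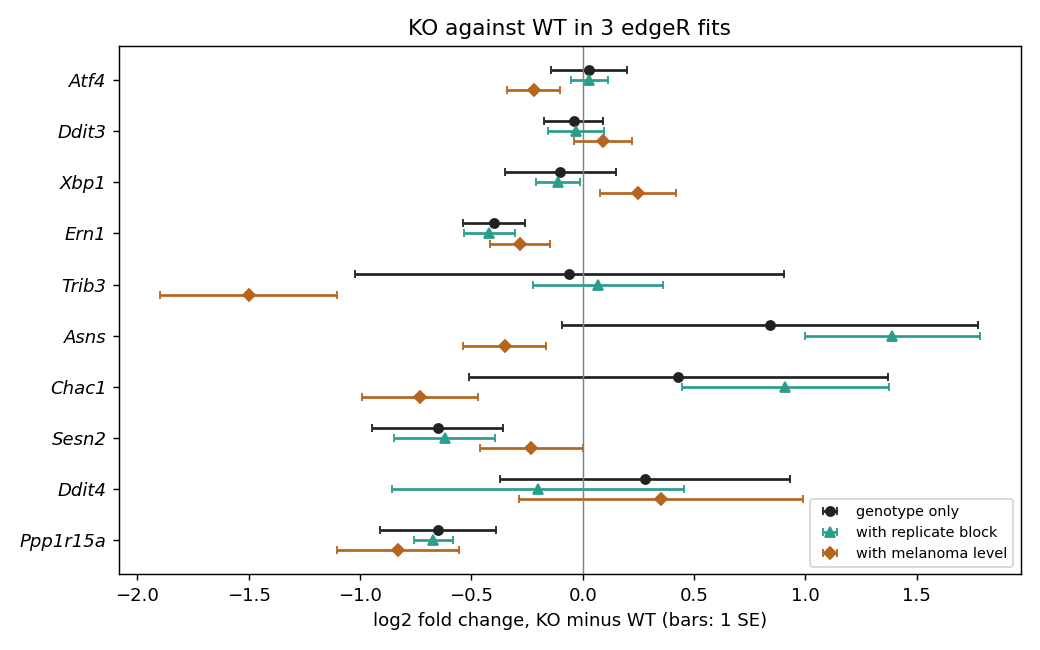
Log2 fold change of KO against WT for the 10 genes in edgeR fits with genotype alone (circles), with the replicate number as a block (triangles) and with the melanoma level as a covariate (diamonds); bars are 1 SE. Asns moves from 0.84 to -0.35 and Trib3 from -0.06 to -1.50 once the melanoma level is in the fit, while Ppp1r15a stays between -0.83 and -0.65.

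The second question was how the genes followed the melanoma RNA of a library. In a fit with genotype, the slope of each gene on the log2 summed CPM of the melanoma markers was estimated, so that a slope of 1 means a doubling of the gene for each doubling of melanoma RNA. Of the 10 genes 4 rose with melanoma RNA and 2 fell (edgeR adjusted p under 0.05), where 20.9% of the 15860 genes outside the melanoma list rose and 14.4% fell. CPM values and the melanoma sum share the library total, so more RNA of any other source lowers the share of all remaining genes. The melanoma level is not spread evenly: WT 1 and WT 2 lie far below the other 6 libraries.

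Asns and Chac1 rose in near proportion to melanoma RNA, and Trib3 had a like slope with a wider error. Their slopes were 1.05 ± 0.0649 (edgeR adjusted p = 2.48e-06), 1.10 ± 0.0969 (edgeR adjusted p = 3.00e-05) and 1.06 ± 0.136 (edgeR adjusted p = 0.000390). These lay above the slopes of 98.9%, 99.2% and 99.0% of genes outside the melanoma list, and the 95% interval of each held 1. Without WT 1 and WT 2 the slopes were 1.06, 1.06 and 1.49, and all 3 passed again (edgeR adjusted p = 4.03e-05, 0.00252 and 0.00256), in a fit that called 41.1% of all genes. With the replicate block in the same fit only Asns passed (0.97, edgeR adjusted p = 0.0270), while Chac1 had 1.09 (edgeR adjusted p = 0.236) and Trib3 0.40 (edgeR adjusted p = 1). That fit called 0.990% of all genes, 0.965% higher and 0.0252% lower. The block leaves fewer residual degrees of freedom than the 5 of the slope fit. The melanoma level was also higher in libraries 3 and 4 than in 1 and 2 of both genotypes. A call lost with the block thus does not tell an absent slope from one that this fit could not resolve.

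Set against the melanoma markers directly, Asns had 5.72, 12.4, 10.3 and 10.8 counts per 1000 melanoma counts in WT 1 to 4, against 7.58, 7.98, 8.24 and 9.05 in KO 1 to 4. The range of 36.8 times in CPM thus shrank to 2.18 times in this ratio. Chac1 had 0.733, 0.811, 1.16 and 0.915 per 1000 in WT 1 to 4, against 0.457, 0.732, 0.581 and 0.700 in KO 1 to 4, a range of 2.54 times. Trib3 had 1.61, 1.62, 1.30 and 1.52 per 1000 in WT 1 to 4, against 0.251, 0.410, 0.586 and 0.895 in KO 1 to 4, from 11 and 12 counts in WT 1 and WT 2 and 11 in KO 1. Its range of 11.8 times in CPM shrank only to 6.46 times in this ratio. The KO ratios of Trib3 were all below its WT ratios, a contrast chosen after its values were seen. The same held for Chac1, though only just (KO 2 at 0.732, WT 1 at 0.733). The share of all genes for which this holds is not given here. At a given melanoma level the log2 fold change of Trib3 was -1.50 ± 0.397, which did not pass over all genes (edgeR adjusted p = 0.408). In the same fit Asns was at -0.35 ± 0.187 and Chac1 at -0.73 ± 0.262 (edgeR adjusted p = 0.798 and 0.568). None of the 10 genes passed in that fit, in which Vsig4 was again the only gene called (0.00630%). The part of melanoma cells in the Asns, Chac1 and Trib3 values was not tested, since no library of B16F10 cells alone was analysed here.

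**Figure D3:**
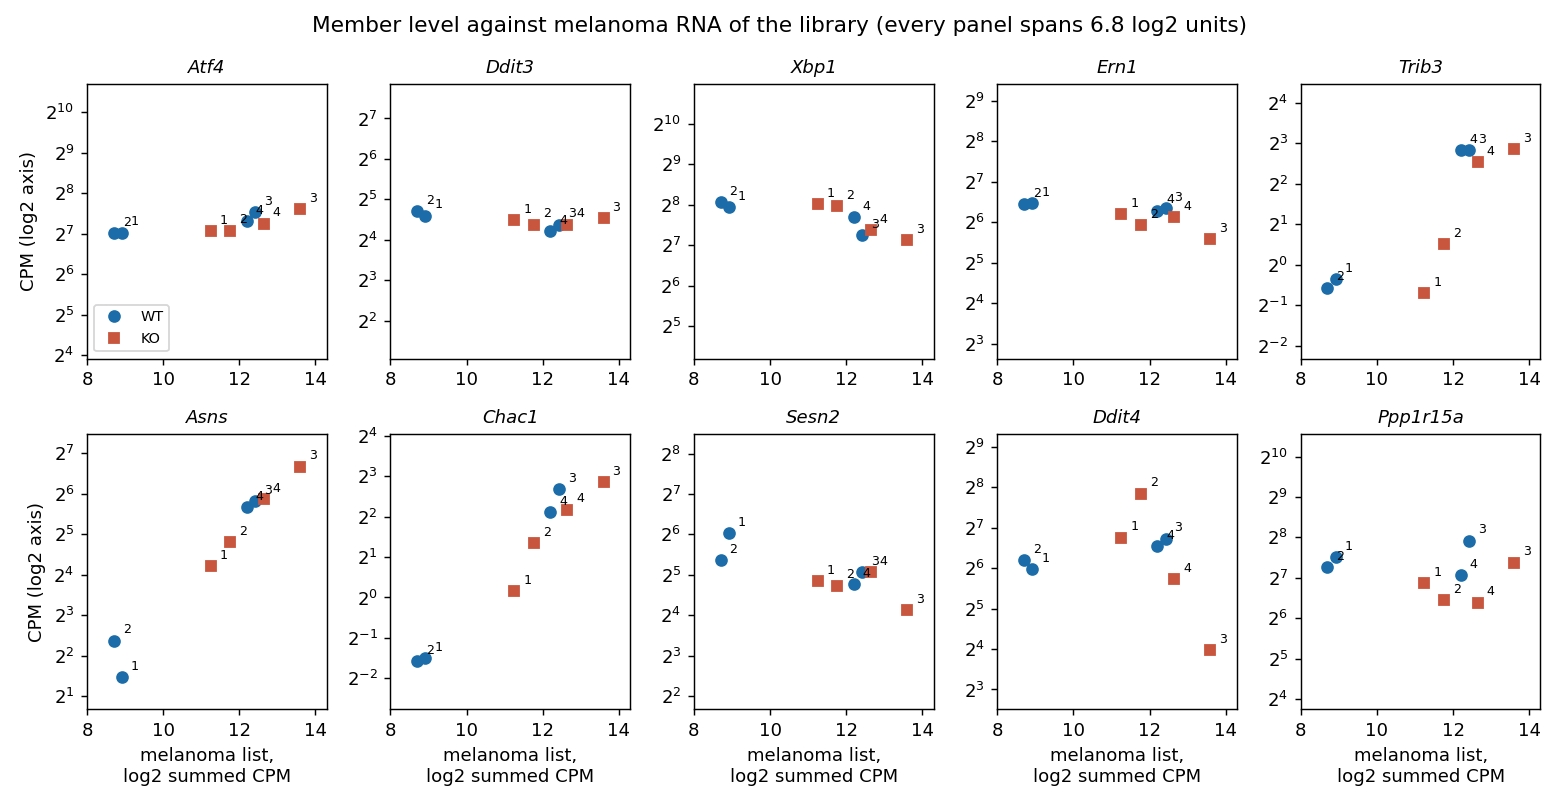
CPM of each gene (y axis, log2 scale, every panel spanning the same number of log2 units) against the log2 summed CPM of the 10 melanoma markers (x axis) in WT (circles) and KO (squares) libraries, numbered as in the labels. Asns and Chac1 have slopes of 1.05 and 1.10, with WT 1 below WT 2 in Asns and KO 4 below WT 3 in Chac1, Trib3 has 1.06 with KO 1 and KO 2 set low, and Ddit3 spans the least (1.40 times).

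Atf4 itself rose only slightly with melanoma RNA, with a slope of 0.14 ± 0.0354 (edgeR adjusted p = 0.0136), or 1.10-fold per doubling. Its call was lost without WT 3 (edgeR adjusted p = 0.0699) and with the replicate block (0.03, edgeR adjusted p = 1). Per 100 Atf4 counts, Asns ranged from 2.13 in WT 1 to 52.3 in KO 3, and Ddit3 from 11.3 in WT 3 to 20.2 in WT 2. Ddit3 had a slope of -0.07 ± 0.0385 (edgeR adjusted p = 0.172).

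Xbp1 fell with melanoma RNA, with a slope of -0.21 ± 0.0539 (edgeR adjusted p = 0.0168), and so did Sesn2, with -0.22 ± 0.0717 (edgeR adjusted p = 0.0386). The Xbp1 call was lost without WT 3 (edgeR adjusted p = 0.0852) and with limma (-0.16, adjusted p = 0.0599), and with the replicate block the sign turned to 0.10 (edgeR adjusted p = 1). Sesn2 was not called with limma (-0.15, adjusted p = 0.154) or with the block (-0.33, edgeR adjusted p = 1). The Sesn2 call was lost without WT 1, WT 3 or WT 4 (edgeR adjusted p = 0.157, 0.0793 and 0.133) and without KO 1, KO 2 or KO 3 (edgeR adjusted p = 0.0661, 0.0600 and 0.0699). Summed Kupffer markers were lowest in KO 3 as well, and their part in these falls was not tested.

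Ern1 (-0.07 ± 0.0421), Ddit4 (-0.08 ± 0.237) and Ppp1r15a (0.10 ± 0.0809) had slopes that did not pass (edgeR adjusted p = 0.207, 0.823 and 0.378). Ddit4 depended on WT 1 and WT 2: without them its slope was -1.55 (edgeR adjusted p = 0.00928). With the genotype term left out, Ern1 passed with a slope of -0.12 (edgeR adjusted p = 0.0418).

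The other genes of the pathway were read from 10 lists with 88 genes, of which 85 passed the filter. In KO against WT 0 of 85 passed in edgeR, DESeq2 and limma, and 8 had an unadjusted p under 0.05, near the 8.78% of all genes. With the replicate block 21 were called higher and 4 lower (8.98% and 5.01% of all genes), and these counts fell to 0 in all without pair 2 or pair 3. At a given melanoma level 0 of 85 passed, and their median log2 fold change was 0.02, against 0.16 with genotype alone. On melanoma RNA 35 of 85 rose and 10 fell, beside the 20.9% and 14.4% of all genes. With the replicate block in the slope fit 0 of 85 passed in edgeR, so every call of a rise or fall given for these lists below is lost there. The limit of that fit given above holds here too.

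In the list of amino acid and folate-linked synthesis 9 of 12 rose and 1 fell, with a median slope of 0.58, where the median of all genes was 0.00. Shmt2, the mitochondrial serine hydroxymethyltransferase, averaged 49.5 ± 20.2 CPM in WT libraries and 75.9 ± 30.4 CPM in KO libraries (SD, n = 4 each) and had a slope of 0.35 ± 0.0414 (edgeR adjusted p = 0.000214). Its log2 fold change of KO against WT was called only with the replicate block (0.63, edgeR adjusted p = 0.0254). At a given melanoma level it was 0.02 ± 0.139. Got1, a transaminase of aspartate, was the most expressed of that list and had a slope of -0.12 ± 0.0735 (edgeR adjusted p = 0.235). Aldh1l2, a mitochondrial folate enzyme chosen after its values were seen, had the widest slope of the lists, 1.16 ± 0.0918 (edgeR adjusted p = 1.51e-05), and ranged from 0.427 CPM in WT 1 to 16.5 CPM in KO 3.

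Of 8 amino acid transporters 6 rose and 1 fell, with a median slope of 0.43. The gene that fell was Slc3a2, the shared heavy chain of several transporters, with a slope of -0.20 ± 0.0433 (edgeR adjusted p = 0.00811), while its light chain partner Slc7a5, named after its values were seen, rose with 0.72 ± 0.0479 (edgeR adjusted p = 4.15e-06). Slc38a2, a carrier of small neutral amino acids, rose with 0.11 ± 0.0382 (edgeR adjusted p = 0.0494). Of the 13 genes for charging and exporting tRNA 10 rose and none fell, with a median slope of 0.20. Gars, the glycyl-tRNA synthetase, had 0.40 ± 0.0555 (edgeR adjusted p = 0.000630), while Nars, the asparaginyl-tRNA synthetase, had -0.00 ± 0.0319 (edgeR adjusted p = 0.928). The log2 fold change of Gars was 0.65 with the replicate block (edgeR adjusted p = 0.0290) and -0.03 ± 0.191 at a given melanoma level.

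Of 8 stress sensors 2 fell and none rose, with a median slope of -0.04. One of these was Eif2ak2, the RNA-sensing kinase PKR, with 117 ± 23.8 CPM in WT libraries against 81.5 ± 22 CPM in KO libraries and a slope of -0.19 ± 0.0434 (edgeR adjusted p = 0.00981). Its log2 fold change was -0.52 ± 0.219 (edgeR adjusted p = 0.492), and -0.53 with the replicate block (edgeR adjusted p = 0.0257). At a given melanoma level it was -0.19 ± 0.138. Atf6b, a sensor relative of ATF6, had a slope of -0.03 ± 0.0283 (edgeR adjusted p = 0.421). Of 10 genes for eIF2, its exchange factor and its regulators 4 rose, with a median slope of 0.12. Eif2s1, the subunit that is phosphorylated, had 0.10 ± 0.0431 and Ppp1r15b, the constitutive counterpart of Ppp1r15a, 0.05 ± 0.0325, and neither passed (edgeR adjusted p = 0.111 and 0.283).

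Among 5 partner factors Cebpg fell (-0.23 ± 0.0749, edgeR adjusted p = 0.0389). Cebpb averaged 99.9 ± 27.7 CPM in WT libraries and 55.1 ± 19.8 CPM in KO libraries, a log2 fold change of -0.86 ± 0.315 that did not pass (edgeR adjusted p = 0.492). Its genotypes did not overlap, which held for 4 of the 85 genes of the lists and for 5.56% of all genes. With the replicate block it was called at -0.91 (edgeR adjusted p = 0.0254). At a given melanoma level it was at -0.50 ± 0.257 and did not pass (edgeR adjusted p = 0.786). Of 15 genes for ER degradation and translocation, many of them XBP1 targets, 1 rose and 5 fell with melanoma RNA, with a median slope of -0.08 beside -0.21 for Xbp1. Os9, a lectin of ER degradation, fell with -0.12 ± 0.0318 (edgeR adjusted p = 0.0190), and Ssr3, a translocon subunit, had 0.00 ± 0.0400 (edgeR adjusted p = 0.983).

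Of 5 genes linked to CHOP 2 rose and none fell, Ero1a (an ER oxidase, 0.12 ± 0.0412, edgeR adjusted p = 0.0455) among them, while the death gene Pmaip1 had -0.04 ± 0.0665 (edgeR adjusted p = 0.694). Of 7 other mTORC1 brakes 1 rose; Eif4ebp2 had -0.01 ± 0.0337 and Sesn1 -0.09 ± 0.0544, and neither passed (edgeR adjusted p = 0.897 and 0.245). Of 5 secreted and surface products only Gdf15 and Vegfa passed the filter, and both rose with melanoma RNA. Gdf15, a stress cytokine, averaged 4.68 ± 1.60 CPM in WT libraries and 11.9 ± 4.66 CPM in KO libraries, and had a slope of 0.29 ± 0.0846 (edgeR adjusted p = 0.0271). Its log2 fold change was 1.35 ± 0.358 (edgeR adjusted p = 0.492), and 1.33 with the replicate block (edgeR adjusted p = 0.0266). At a given melanoma level it was 0.84 ± 0.282 (edgeR adjusted p = 0.539). Vegfa, the vascular growth factor, had a slope of 0.67 ± 0.0546 (edgeR adjusted p = 1.78e-05).

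**Figure D4:**
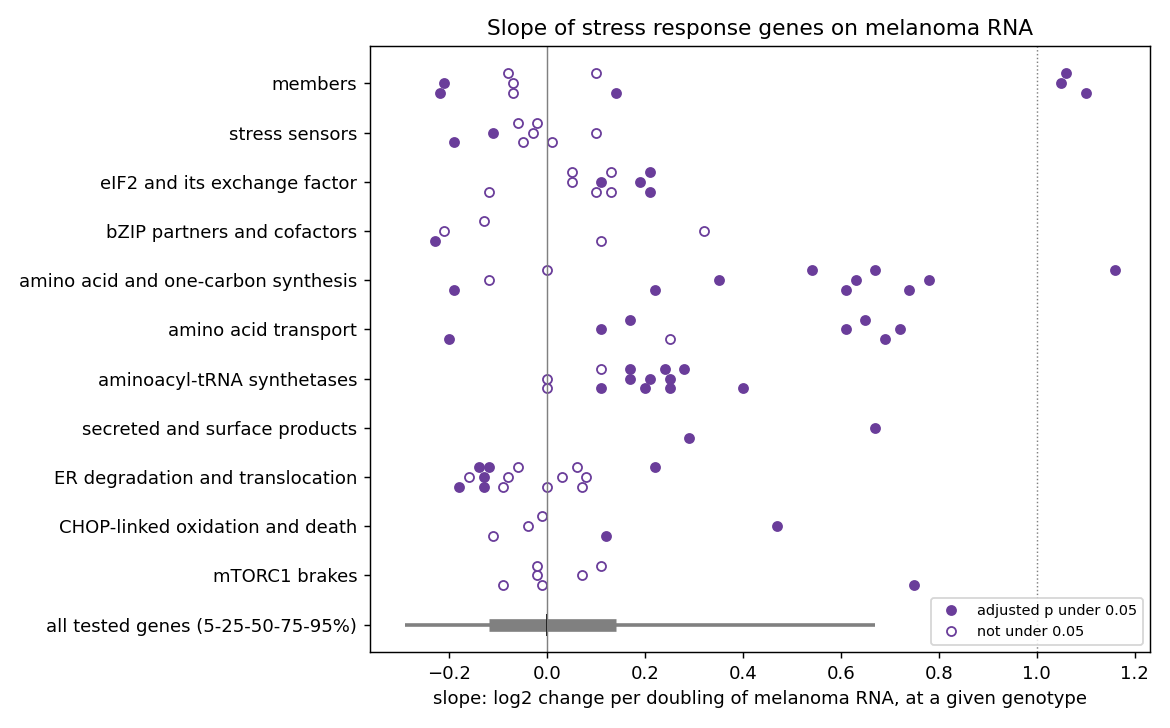
Slope on melanoma RNA (x axis, log2 change per doubling at a given genotype) of the 10 ISR genes (top row, members) and of the tested genes of each pathway list; filled points passed the test, open points did not, and the grey bar gives the percentiles of all genes outside the melanoma list. Asns, Chac1 and Trib3 sit near 1, amino acid synthesis and transport genes reach 0.58 and 0.43 in the median, and ER degradation genes lie near 0 with a median of -0.08.

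The genes whose log2 CPM followed single ISR genes most closely are given as a description over the 8 libraries, which share depth scaling and the melanoma gradient. Among 4605 genes with a mean of at least 10 FPKM, those most like Atf4 were Odc1 (Pearson r = 0.973), Yeats4 (0.971) and Rbm3 (0.969). For Ddit3 they were Ccng1 (0.954), Spg7 (0.949) and Hp1bp3 (0.949), and for Xbp1 Ppp1r21 (0.991), Plekhf2 (0.988) and Golph3l (0.984). For Trib3, among 4606 genes, they were Hnrnpd (0.969), Ewsr1 (0.962) and Naglu (0.942). A high r does not mean a change of like size. Hnrnpd ran from 204 to 257 CPM, Ewsr1 from 448 to 566 CPM and Naglu from 42.3 to 76.3 CPM, while Trib3 spanned 11.8 times. Between the 10 genes themselves the closest pair was Asns and Chac1 (0.98) and the most opposed pair Atf4 and Xbp1 (-0.95).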

How the data were processed

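Gene counts of 8 bulk libraries, 4 per genotype, came from 1 deposited table. The submitters' processing notes name HTSeq 0.6.1 and mm10; no label gives the aligner, annotation or strand setting. Raw counts and FPKM stand side by side per the file headers, and the FPKM the authors deposited matched count, exonic size and column total within 0.015 for 100% of genes. Gene sizes and positions are other deposited values. Only 1472 of 52073 shared identifiers had the position of GENCODE M21 (GRCm38), so the build of the deposited positions is unknown; RefSeq sequences carry their own build. Columns C and K were read as WT control and KO, with the digit as the title's number.

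Genes were kept by filterByExpr (15870), scaled by TMM and tested with edgeR 4.0.16 (R 4.3.3), quasi-likelihood F test, 2-sided, Benjamini-Hochberg over all tested genes, threshold 0.05. The second fit tested the slope on the log2 summed CPM of 10 melanoma markers beside genotype. Each SE is the coefficient (no prior count) divided by the root of its F; 95% intervals use 6 residual degrees of freedom for genotype and 5 for the slope. DESeq2 1.42.0 and limma 3.58.1 on log2(FPKM + 1) were alternatives. Scripts were tested on simulated data. At these depths a gene with no count could still have 3, or 0.154 to 0.197 CPM, by counting error alone.

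The 10 genes, lists and alternatives were chosen with earlier results of these data known. Named besides the 10 were the 2 most expressed genes of each list and the 3 genes most correlated with Atf4, Ddit3, Xbp1 and Trib3; others are marked as chosen after their values were seen. Genotypes share the numbers 1 to 4. Deviations from genotype means correlated between same-numbered libraries at 0.561, 0.544, 0.660 and 0.290, so the numbers were taken to pair them; the pairing comes from these values and not from the labels. In the same check 4 of 8 libraries correlated best with another number: best matches were KO 1 for WT 2, KO 3 for WT 4, WT 2 for KO 1 and WT 3 for KO 4. No replicate pair agreed within sampling noise (chi-square per degree of freedom at least 10.0).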

Additional observations from a re-analysis of the deposited data

How the results depend on the processing

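Log2 fold changes of KO against WT kept their direction and their side of the threshold in 128 of 160 alternatives, 2 passed newly and 30 changed sign; of slopes on melanoma RNA 109 of 130 kept both, 14 lost the call, 2 gained it and 5 changed sign. Alternatives by pair, and the slope without WT 1 and WT 2, were added after seeing the data. Why a value changed sign was not tested.

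Genes called between genotypes numbered 1 in the reported fit, 66 with DESeq2, 2 without the filter, 1 to 2 with a library left out, and 2220 with the replicate block. The blocked count was 207, 2, 1 and 2229 without pair 1, 2, 3 and 4. Of the 10 ISR genes the block called 2, and 1, 0, 0 and 4 without those pairs; of the 85 pathway genes it called 25, and 2, 0, 0 and 24. Slope calls numbered 5602 genes, 6 of 10 and 45 of 85, falling to 157, 1 and 0 with the block; without pair 1, 2, 3 and 4 they were 2177, 2941, 3478 and 3946 genes, 3, 4, 3 and 5 of 10, and 22, 30, 31 and 37 of 85. With a library left out they ran from 3562 to 5496 genes, 3 to 6 of 10 and 32 to 46 of 85.

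With the melanoma covariate, log2 fold changes with another sign were -0.22 for Atf4, 0.09 for Ddit3, 0.25 for Xbp1, -0.35 for Asns and -0.73 for Chac1; without WT 1, WT 2 and KO 3 together they were -0.29, 0.11, 0.33, -0.62 and -0.97. With limma on log2(FPKM + 1) and log2(FPKM + 0.1) Ddit3 had 0.05 and 0.06, Trib3 0.05 and 0.16, and Ddit4 -0.17 and -0.19. With the replicate block Trib3 had 0.07 (0.14, 0.10 and 0.25 without pair 1, 3 and 4) and Ddit4 -0.20 (-0.64 and -0.89 without pair 1 and 2), and Ddit3 had 0.07 in the block without pair 2. With a library left out the ranges crossed 0 for Atf4 (-0.10 to 0.14), Ddit3 (-0.13 to 0.04), Xbp1 (-0.24 to 0.04), Trib3 (-0.58 to 0.38), Chac1 (-0.05 to 1.19) and Ddit4 (-0.51 to 0.63). Slopes with another sign were 0.01 for Ddit3 without WT 1 and WT 2; 0.10 for Xbp1, 1.26 for Ddit4 and -0.06 for Ppp1r15a with the replicate block; -0.03 for Ppp1r15a without the genotype term; and 0.04 for Ddit4 and -0.12 for Ppp1r15a without pair 3. The Ddit4 slope ran from -0.23 to 0.09 with a library left out. Depth limits Chac1 and Trib3, with 5 to 12 counts in their lowest libraries.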
